A study of Homo sapiens with 6 samples.

Results

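The libraries described here are the 3 controls, of 6 RNA sequencing libraries in the series, made from C42 cells that carried the control short hairpin RNA shCTR. They were chosen by their labels and are numbered 1, 2 and 4, and the other libraries, with a hairpin against NSD2, were not used. C42, also written C4-2, is an established human prostate cancer line derived from LNCaP that grows as castration-resistant tumours. Per the labels, the cells grew in RPMI medium with 10% fetal bovine serum and antibiotics, and all 3 control libraries share the line, the medium, the hairpin and the kits. The labels do not name the vector or say whether the cells were 1 clone or whether the libraries came from separate cultures. Spread between them may therefore be technical, and any p-value among them measures only that spread. NSD2, the histone methyltransferase that the study targets, stood at 218, 224 and 198 CPM in shCTR 1, 2 and 4.

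In luminal prostate epithelium androgen signalling works with pioneer and lineage factors such as FOXA1 and HOXB13 at the enhancers of genes for secreted and membrane proteins. The kallikrein KLK3, which encodes prostate-specific antigen, is the best known of these targets. A control transcriptome shows which parts of this circuit, which receptors and which signalling components the cells carry before any gene is depleted.

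Levels are counts-per-million values (CPM), scaled to a library's total, and where 3 values are given they stand for shCTR 1, 2 and 4 in this order. A gene counts as expressed at 1 CPM or more in all 3 libraries and as absent at 3 counts or fewer in each. That limit lies between 0.145 and 0.155 CPM, and it covers counting error only. Coordinates, gene types and exon lengths are those of GENCODE 29 on GRCh38. A rank by CPM says how many reads a gene took, which grows with gene length. Levels of different genes are compared per length, as transcripts-per-million values (TPM) over merged exon lengths. A gene with many annotated exons can be understated on that scale. Totals ran from 19412896 to 20665494 counts. Of 31413 rows, 14200 (45.2%) were expressed, 8195 (26.1%) were absent and 9018 lay between. Among the 16231 protein-coding rows 11947 (73.6%) were expressed and 1740 (10.7%) were absent. Described gene lists hold 919 distinct genes, of which 825 have a row, 605 were expressed and 76 were absent. The 94 genes without a row were not analysed here and are named as such where they matter. Lists and members were chosen with earlier results of these data known. A list's share beside that of all genes is therefore a description and no test.

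The cells carried the markers that define prostate luminal epithelium. KLK3 read 7004, 6490 and 6306 CPM. FOLH1, the membrane peptidase known as prostate-specific membrane antigen, read 1377, 1226 and 996 CPM. The paired keratins of simple epithelium, KRT8 and KRT18, read 327, 371 and 417 CPM for KRT8 and 204, 239.9 and 309 CPM for KRT18. All 4 were expressed in every library, with KLK3 and FOLH1 highest in shCTR 1 and both keratins highest in shCTR 4. Among markers of other cells, KRT5 and TP63 (basal), CHGA and INSM1 (neuroendocrine), PTPRC and CD3E (leukocyte), CDH5 (endothelial) and DCN (fibroblast) have no row. KRT14, a basal keratin, read 1.61, 1.21 and 0.618 CPM. The synaptic vesicle protein gene SYP read 4.04, 4.5 and 4.53 CPM, and the monocyte receptor gene CD14 read 0.243, 0.242 and 0.206 CPM. PECAM1, an endothelial adhesion molecule, had 1 count in shCTR 1 and 0 counts in the others. VWF, the clotting factor stored in endothelium, read 5.69, 5.66 and 5.41 CPM. LUM, a collagen-binding proteoglycan of fibroblasts, had 2 counts in shCTR 1 and 0 counts elsewhere, and PDGFRB, a receptor of mesenchymal cells, read 1.703, 1.84 and 1.65 CPM. In bulk RNA, few cells of a type and little RNA per cell cannot be told apart.

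**Figure D1:**
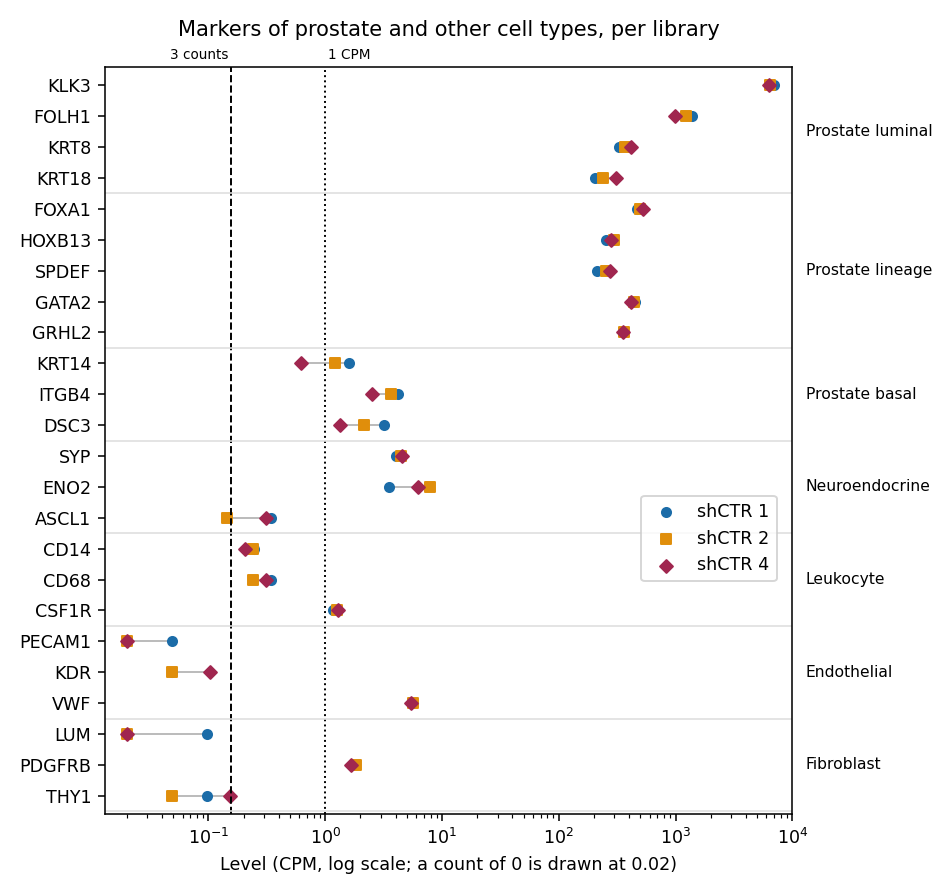
Levels in CPM on a log axis of selected markers of prostate and other cell types; each symbol is 1 control library, the dashed line is the level of 3 counts in shCTR 4, the dotted line is 1 CPM, and counts of 0 are drawn at 0.02. The luminal and lineage genes lie above 200 CPM in every library, while those of the other cell types lie below 10 CPM.

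The counts were spread over many genes, with secretory, translation, chaperone and lipid synthesis genes at the top. The 10 most abundant genes took 4.46, 4.41 and 4.22% of the counts in shCTR 1, 2 and 4, the top 100 took 16.7, 16.5 and 16.5%, and 1104, 1119 and 1098 genes held 50% of each total. KLK3, on chromosome 19 from 50854915 to 50860764, took the most counts, at 6600 ± 361 CPM (SD, n = 3). FN1, the extracellular matrix glycoprotein fibronectin, on chromosome 2 from 215360440 to 215436172, came next at 6333 ± 2410 CPM (SD, n = 3) and differed most of the top 20, from 3947 CPM in shCTR 4 to 8760 CPM in shCTR 1. The elongation factors EEF2 and EEF1A1, which carry ribosomes and aminoacyl-tRNA through translation, averaged 5567 and 4945 CPM. MALAT1, a nuclear long noncoding RNA, averaged 4363 CPM, and the poly(A)-binding protein gene PABPC1 averaged 3750 CPM. ACTB, the cytoskeletal beta-actin, read 2797, 2809 and 3538 CPM. Lipid synthesis was represented by FASN (fatty acid synthase, 2874, 3703 and 2564 CPM) and ELOVL5 (fatty acid elongation, 2849, 2431 and 1998 CPM). ABHD2, a lipid hydrolase gene, read 3225, 3073 and 1725 CPM, with shCTR 4 well below the others. Chaperones filled 5 places: HSP90AA1, HSPA8, HSP90AB1, HSPA5 and HSP90B1, at means from 2174 to 2597 CPM. The secreted metalloprotease gene ADAMTS1 read 2829, 2092 and 1664 CPM. The translation genes RPS2, EIF4G1 and RPLP0 averaged 2428, 2127 and 2125 CPM.

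**Figure D2:**
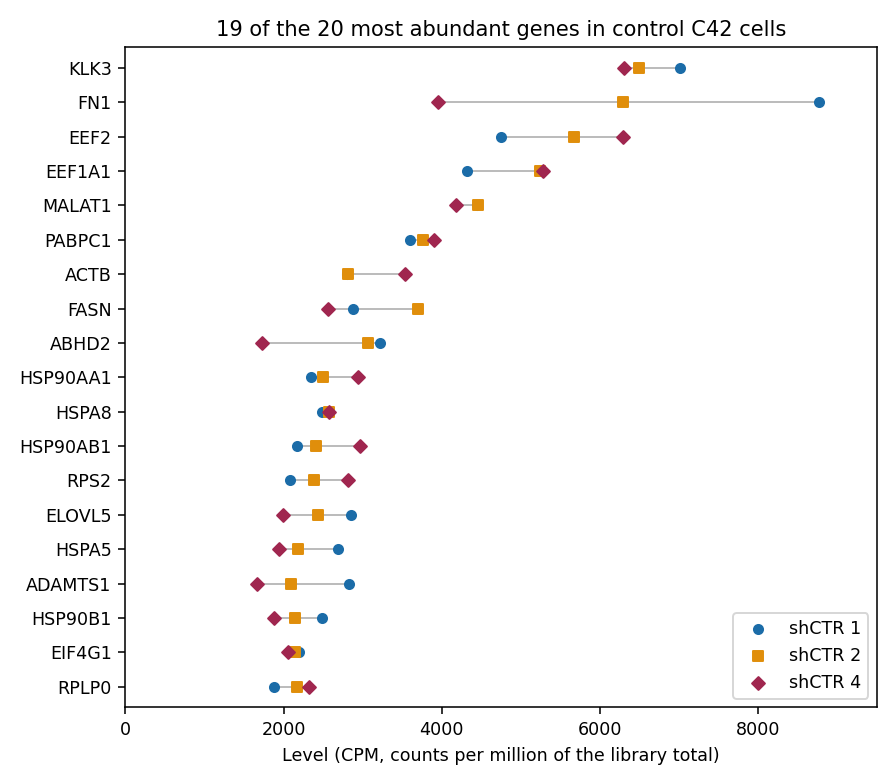
Levels in CPM of 19 of the 20 genes of highest mean; each symbol is 1 control library and the grey line spans the 3. FN1 has the widest span, 3947 to 8760 CPM, and HSPA8 one of the narrowest, 2485 to 2580 CPM.

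Per length the order changed, and 10 of these 20 genes were also among the top 20 by TPM. KLK3 stood at 6380 ± 596 TPM and EEF2 at 6168 ± 630 TPM, a gap smaller than either SD. FN1, with 17315 bases of merged exons, stood at 1655 ± 686 TPM. The highest TPM, 6733 ± 1420, belonged with the largest SD of these to MTATP6P1, a nuclear pseudogene that copies the mitochondrial ATP6 gene. No mitochondrially encoded gene has a row, so reads of the pseudogene and of its mitochondrial source cannot be told apart here. Multigene copies also limit RPS2, RPLP0, EEF1A1 and ACTB, whose processed pseudogenes share sequence with them.

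The listed prostate lineage factors were expressed in about the same share as protein-coding rows, and their levels differed widely. The ETS genes ETV1, ETV4 and ETV5 and the stem cell factor SOX2 were near or below the detection limit, while other ETS genes were expressed. Of 28 listed, 24 have a row, 18 were expressed (75% of rows) and 1 was absent, against 73.6% and 10.7% of protein-coding rows. FOXA1, a pioneer factor that opens chromatin for steroid receptors, read 469, 496 and 525 CPM, and HOXB13, a homeobox factor of prostate, read 255, 295 and 281 CPM. The libraries stayed close to each other for both genes, with highest-to-lowest ratios of 1.12 and 1.16. GATA2, a zinc finger factor, read 449, 444 and 414 CPM. The ETS factors SPDEF and EHF, both epithelial, read 215, 254 and 272 CPM for SPDEF and 594, 615 and 412 CPM for EHF. TBX3, a T-box repressor, read 705, 687 and 602 CPM. GRHL2, an epithelial grainyhead factor, was nearly equal in the 3 libraries at 357, 360.4 and 352 CPM. The oncogene MYC read 297, 311 and 251 CPM, and CREB3L4, a membrane-bound factor of prostate secretory cells, read 121, 115 and 159 CPM.

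Further lineage factors lay below 60 CPM, a level not adjusted for length. Per length ONECUT2 (10.6 TPM) and FOXP1 (6.08 TPM) stood below KLF5 (27.6 TPM) and SOX9 (23.1 TPM). ONECUT2 read 40.7, 37.6 and 36.9 CPM, FOXP1 read 43.5, 52.2 and 54.1 CPM, KLF5 read 23.9, 24.6 and 23.5 CPM and SOX9 read 20.9, 21.3 and 18.6 CPM. ELF3, another epithelial ETS factor, read 9.93, 11.8 and 11.7 CPM. The gut factor HNF4G, together with NKX3-2 and RUNX1, fell between 1 and 4 CPM in every library. GATA3, a luminal factor of breast and bladder, and the ETS genes ETV4 and ETV5 stayed under 0.4 CPM. ETV1, an ETS gene rearranged in some prostate cancers, had 4, 1 and 2 counts. SOX2, a stem cell and neural factor, was absent at 2, 2 and 3 counts. ERG, FLI1, TP63 and MYCN have no row.

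Among nuclear hormone receptors and their coregulators, 27 of 34 rows were expressed (79.4%) and 3 were absent, against 73.6% and 10.7% of protein-coding rows. NR2F6, an orphan receptor, stood at 169 ± 4.29 TPM and ESRRA, an estrogen-related receptor, at 163 ± 7.68 TPM, a gap smaller than the larger SD. NR3C1, the glucocorticoid receptor, had 0 counts in all 3 libraries, which allows at most 3 counts in each. NR3C2, the mineralocorticoid receptor, read 26.1, 23.03 and 25.5 CPM. The estrogen receptor ESR1 was absent, with at most 2 counts in any library, and ESR2 read 1.85, 1.597 and 0.979 CPM. PGR, the progesterone receptor, had 3, 4 and 0 counts.

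Retinoid, thyroid, vitamin D and lipid receptors were nearly all detected. RXRA, the common partner of many of them, read 176, 177 and 186 CPM, and RXRB read 13.8, 16.1 and 15.97 CPM. The retinoic acid receptors were ordered RARG, RARA and RARB per length, at 29.6, 16.04 and 5.51 TPM. VDR, the vitamin D receptor, read 50.5, 52.02 and 50.8 CPM. The thyroid receptors THRA and THRB averaged 50.3 and 62.02 CPM, and per length 32.4 and 25.3 TPM. Of the fatty acid sensors, PPARD (48.7 TPM) stood above PPARA (9.35 TPM) and PPARG (5.13 TPM). The oxysterol receptors NR1H2 and NR1H3 averaged 53.9 and 17.1 CPM. The COUP-TF genes NR2F2 and NR2F1 stood at 78.03 and 3.71 TPM. NR4A1, an immediate early gene, read 22.4, 29.4 and 26.4 CPM, and RORA read 5.79, 4.36 and 3.19 CPM. ESRRG and NR5A2 stayed under 0.4 CPM, HNF4A was absent and NR0B1 has no row. The corepressor NCOR1 averaged 239 CPM, and the coactivators NCOA1, NCOA2 and NCOA3 averaged 105, 78.7 and 42.5 CPM.

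A pair of kallikreins is prominent among the classical androgen targets, and their upstream sequences are shown because both genes were abundant and their promoters are alike. KLK3 and KLK2 lie near each other on chromosome 19. The 250 bases before each annotated start, from RefSeq on GRCh38.p14, plus strand, are printed with 2 stretches in capitals: a match to the spaced steroid receptor element GAACANNNNGTNC and a match to the TATA box letters TATAAA read on the other strand.
KLK3 at chr19:50854665-50854914: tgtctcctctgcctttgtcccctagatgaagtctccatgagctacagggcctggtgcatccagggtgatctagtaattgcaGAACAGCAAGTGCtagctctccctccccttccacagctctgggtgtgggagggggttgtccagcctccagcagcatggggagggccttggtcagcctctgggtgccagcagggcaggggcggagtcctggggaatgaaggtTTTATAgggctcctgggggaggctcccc
KLK2 at chr19:50873189-50873438: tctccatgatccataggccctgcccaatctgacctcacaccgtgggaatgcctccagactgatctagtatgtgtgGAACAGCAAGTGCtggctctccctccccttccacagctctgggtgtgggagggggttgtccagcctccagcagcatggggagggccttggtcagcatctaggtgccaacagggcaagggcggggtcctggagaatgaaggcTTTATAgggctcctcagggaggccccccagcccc
The element begins 169 bases before the start of KLK3 and 175 bases before that of KLK2, and the TATA match begins 28 and 34 bases before them. Aligned, the stretches agree at 205 of 259 columns (79.2%), with 80 bases in the longest shared run. Both strands of 35116 promoters of the same length were searched, and 211 (0.601%) hold the spaced element and 3763 (10.7%) hold TATAAA. The second part of the element, NGTNC, has N where the KLK3 site AGTGC departs from TGTTC, the letters GAACA read on the other strand. The match in KLK3 was thus given by the letters searched for, and KLK2 holds the same stretch. Its rarity among promoters is a description and no test. A match describes letters and does not show binding.

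Of 34 prostate secretory and androgen-regulated genes, 32 have a row, 30 were expressed and 0 were absent, against 73.6% and 10.7% of protein-coding rows. At a mean of 100 CPM or more were 21, against 2433 of all 31413 rows (7.75%). Of all rows only 16231 are protein coding, so that share is not matched to this list. KLK2, the protease that activates the KLK3 product, read 1018, 1038 and 935 CPM, and KLK4, another kallikrein, read 138, 148 and 161 CPM. SPON2, a secreted matrix protein, read 1666, 1486 and 1595 CPM. The six-transmembrane metalloreductases STEAP1, STEAP2 and STEAP4 stood at 954, 564 and 1.65 TPM. STEAP1 read 391, 330.2 and 315 CPM, STEAP2 read 1327, 1106 and 837 CPM and STEAP4 read 5.69, 4.31 and 2.27 CPM. All 3 were highest in shCTR 1 and lowest in shCTR 4, as were 26.3% of all genes with a mean of 5 CPM or more. STEAP4, at a mean of 4.09 CPM, lay under that limit. SLC45A3, the prostate sugar transporter known as prostein, read 685, 621 and 516 CPM. TMPRSS2, the membrane serine protease, read 601, 651 and 416 CPM. AZGP1, a secreted zinc-binding glycoprotein, read 533, 473 and 604 CPM, with shCTR 4 highest.

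Further androgen targets on the list covered a wide range. FKBP5, the co-chaperone of steroid receptors, read 533, 605 and 529.7 CPM, with little spread. SORD, sorbitol dehydrogenase, read 574, 633 and 627 CPM. PMEPA1, a brake on SMAD signalling, read 613, 623 and 675 CPM, and PLPP1, a lipid phosphatase, read 751, 660.4 and 572 CPM. RDH11, a retinal reductase, averaged 334 CPM and NDRG1, a stress-responsive gene, averaged 337 CPM. CAMKK2, a kinase upstream of AMPK, read 116, 178 and 116 CPM, with shCTR 2 highest. ZBTB16, MAF and PPFIA2 averaged 69.7, 28.3 and 127 CPM.

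Of the same list 3 members passed the rule for genes that vary, a highest level at least 2 times the lowest with a mean of 5 CPM or more, which 140 of 11191 genes met (1.25%). TRPM8, the cold-sensing cation channel, read 355, 279.6 and 148 CPM. ABCC4, an exporter of cyclic nucleotides, read 1000, 849.7 and 494 CPM. KCNN2, a calcium-gated potassium channel, read 92.4, 73.9 and 44.1 CPM. In each the levels of shCTR 1 and 2 were nearer to each other than to the low value of shCTR 4. At the low end, ACPP, the gene of prostatic acid phosphatase, read 20.8, 18.3 and 14.99 CPM, far below KLK3 per length (19.4 TPM). The T-cell receptor constant segment TRGC1, which the prostate transcribes, averaged 14.1 CPM. AMACR and TGM4 averaged 5.05 and 2.69 CPM, and HPGD, which breaks down prostaglandins, averaged 1.28 CPM. MSMB, a major protein of seminal plasma, read 0.876, 1.16 and 1.34 CPM, and OR51E1 had 1, 3 and 4 counts. NPY and OR51E2 have no row.

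Among steroid metabolism enzymes, several of androgen and estrogen synthesis were absent. Of 30 rows 17 were expressed (56.7%) and 6 were absent, against 73.6% and 10.7% of protein-coding rows. DHCR7, an enzyme of cholesterol synthesis, read 296, 276 and 237 CPM. HSD17B4, a peroxisomal dehydrogenase, read 223, 237 and 241 CPM, and HSD17B10, a mitochondrial one, read 88.4, 98.9 and 123 CPM. The steroid 5-alpha-reductase SRD5A1 read 41.1, 42 and 38.5 CPM, SRD5A3 read 51.5, 45.8 and 52.7 CPM and SRD5A2 has no row. HSD11B2, which inactivates cortisol, read 53.6, 46.4 and 52.95 CPM, while HSD11B1, which regenerates it, had at most 1 count. CYP11A1, the side-chain cleavage enzyme, on chromosome 15 from 74337759 to 74367740, had the largest ratio of protein-coding genes with a mean of 5 CPM or more and read 16.3, 13.2 and 2.99 CPM. CYP17A1, which makes androgen precursors, had 3, 0 and 0 counts, and CYP19A1, the aromatase, at most 1. HSD3B2 and HSD17B3, which act in adrenal and testicular steroid synthesis, were absent, as were HSD11B1 and UGT2B7. HSD3B1, the peripheral counterpart of HSD3B2, read 1.12, 0.387 and 0.464 CPM. AKR1C3, a reductase that makes testosterone, had 6, 4 and 1 counts. The UGT2B15 and UGT2B17 genes, whose products conjugate androgens, read 2.29, 1.79 and 1.597 CPM and 2.14, 1.35 and 1.597 CPM. They are near-identical copies, so their split is uncertain.

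Epithelial junction and keratin genes were expressed in 31 of 33 rows (93.9%, against 73.6% of protein-coding rows). Of 30 at 5 CPM or more 2 varied (6.67%, against 1.25% of all genes). CDH1, E-cadherin, read 1257, 1110 and 847 CPM. DSG2, a desmosomal cadherin, varied at 961, 744 and 405 CPM. JUP, plakoglobin, read 419, 444 and 524 CPM and DSP, desmoplakin, read 502, 501 and 324 CPM, so shCTR 4 was highest in the former and lowest in the latter. DSC2, the other desmosomal cadherin that varied, read 95.4, 76.3 and 46.4 CPM. Tight junction claudins ranked CLDN3, CLDN7 and CLDN4 per length, at 398, 378 and 269 TPM. CLDN1 read 0.584, 0.339 and 0.206 CPM. EPCAM, an epithelial adhesion molecule, read 189, 169 and 179 CPM. The epithelial splicing factors ESRP1 and ESRP2 averaged 178 and 195 CPM. KRT19 averaged 19.1 CPM, KRT7 was absent at 2, 1 and 2 counts, and KRT20 has no row.

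Markers of other lineages were mostly low, with LAMA3 and FN1 as exceptions. Of 16 basal markers with a row, 6 were expressed (37.5%, against 73.6% of protein-coding rows), and the summed level of 586, 494 and 470.5 CPM was mostly LAMA3. That laminin chain read 492, 407 and 403 CPM, and ITGA6, an integrin that binds laminin, read 39.7, 43.02 and 33.5 CPM. DST and SNAI2 averaged 25.1 and 7.33 CPM, and CAV1, caveolin, was absent. Neuroendocrine markers summed to 33.1, 40.6 and 38.1 CPM, with 4 of 18 expressed (22.2%, against 73.6% of protein-coding rows). Of these, DLL3, a Notch ligand, read 9.39, 10.8 and 15.4 CPM and PEG10 read 12.02, 13.02 and 6.95 CPM. SYP and ENO2 were the others. ENO2, neuronal enolase, varied and read 3.55, 7.94 and 6.23 CPM. Among the absent ones were SCG3 and ELAVL3, a secretory granule and a neuronal RNA-binding protein.

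Mesenchymal markers summed to 8829, 6362 and 4013 CPM, of which FN1 was nearly all. VIM, the mesenchymal intermediate filament vimentin, read 5.89, 7.98 and 9.89 CPM. The repressor SNAI1 averaged 5.38 CPM and LOX, a collagen crosslinker, 11.5 CPM. TAGLN, an actin-binding protein of smooth muscle, averaged 13.8 CPM and COL1A1, a chain of type I collagen, 19.6 CPM. ZEB1, TWIST1 and TWIST2, factors of epithelial-mesenchymal transition, were absent, and CDH11 and POSTN had 0 counts in every library. CDH2, ZEB2 and COL1A2 have no row.

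Leukocyte markers summed to 8.08, 6.34 and 7.47 CPM, with 3 of 13 rows expressed (23.1%, against 73.6% of protein-coding rows). These were CD8A, CORO1A and CSF1R, each under 2 CPM. NKG7 read 1.41, 0.581 and 0.876 CPM, and CD79A, LYZ and GNLY were absent. Endothelial markers summed to 14.2, 12.8 and 11.7 CPM, with 3 of 11 expressed (27.3%, against 73.6% of protein-coding rows). Those 3 were VWF, ENG and ESAM, with ENG at 4.33, 3.39 and 3.04 CPM and ESAM at 2.09, 1.5 and 1.13 CPM, while CLDN5 read 0.876, 0.774 and 1.08 CPM. KDR and PLVAP were absent along with PECAM1. Fibroblast and muscle markers summed to 29.4, 30.7 and 25.96 CPM, and COL1A1 took most of this sum. Of their 12 rows 3 were expressed (25%, against 73.6% of protein-coding rows). COL6A3, a microfibril collagen, read 3.31, 4.84 and 3.76 CPM, and FBLN1, a secreted matrix glycoprotein, read 1.703, 1.79 and 0.824 CPM. PDGFRA, LUM, THY1 and MYH11 were absent.

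**Figure D3:**
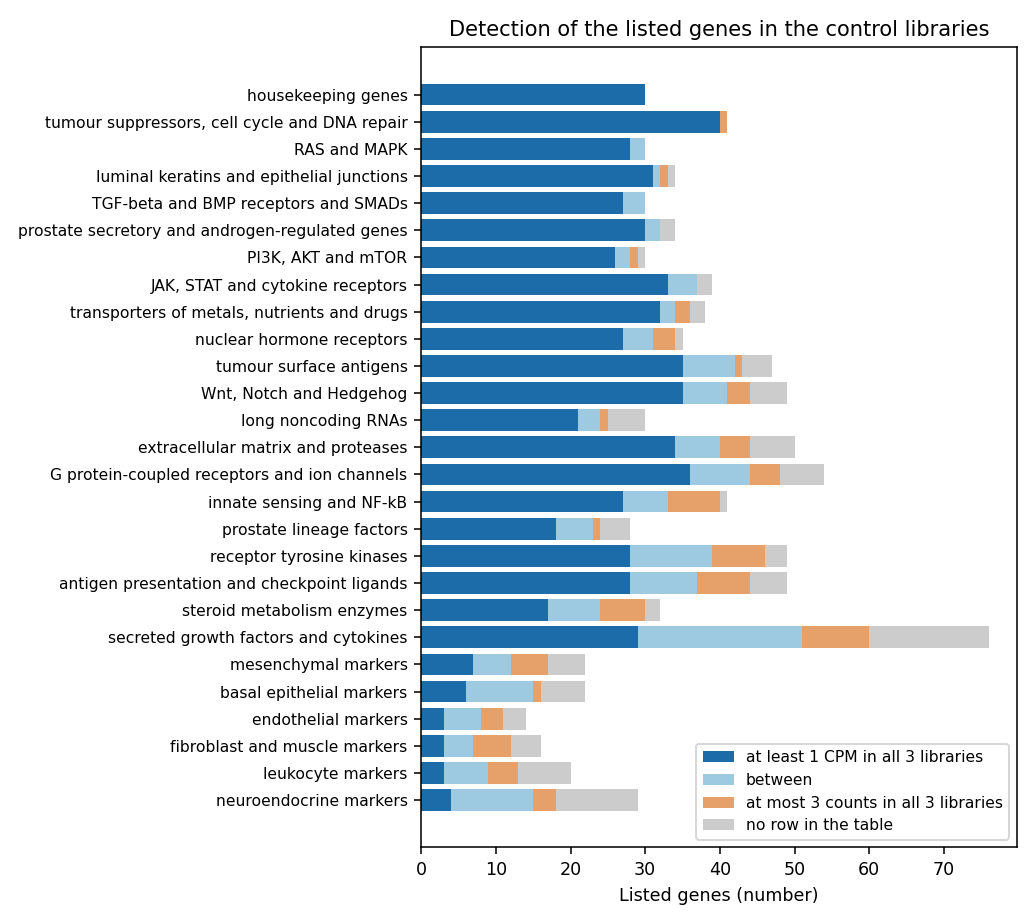
Number of listed genes in each of 27 lists that were expressed (1 CPM or more in all 3 libraries), absent (3 counts or fewer in each), between these limits or without a row. All 30 housekeeping genes were expressed, against 4 of the 18 neuroendocrine markers that have a row, with 11 more without one. Of protein-coding rows 73.6% were expressed.

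Of 76 secreted growth factors and cytokines, 60 have a row, 29 were expressed (48.3% of rows) and 9 were absent, against 73.6% and 10.7% of protein-coding rows. GDF15, a stress-induced member of the TGF-beta family, read 330.3, 602 and 495 CPM, with shCTR 1 lowest. The insulin-like growth factor binding proteins IGFBP3 and IGFBP2 read 393, 224 and 389 CPM for IGFBP3 and 308, 257 and 267 CPM for IGFBP2. SEMA3C, a semaphorin ligand, varied and read 442, 289 and 181 CPM. VEGFA, the main angiogenic factor, read 153, 203 and 219 CPM, and MDK, a heparin-binding factor, read 59.3, 58.7 and 85.6 CPM. Of the ligands of the EGF receptor, EGF averaged 18.9 CPM and HBEGF 7.57 CPM, TGFA averaged 1.13 CPM and AREG was absent. IGF1 read 32.1, 22.1 and 32.9 CPM. Of the TGF-beta ligands, TGFB2 was highest per length (11.3 TPM), TGFB3 stood at 1.73 TPM and TGFB1 had 6, 2 and 2 counts. The inflammatory genes CXCL8, CCL2 and TNF had at most 4, 2 and 1 counts in any library. FGF8, CSF3 and IL18 were absent, and IL6, HGF, NRG1 and CXCL1 are among 16 without a row.

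Extracellular matrix and protease genes ranged from the abundant FN1 to absent members, and most were lower in shCTR 4 than in shCTR 1. Of 44 rows 34 were expressed (77.3%, against 73.6% of protein-coding rows). Among the 32 at a mean of 5 CPM or more 29 were lower in shCTR 4 than in shCTR 1, as were 5395 of all 11191 genes (48.2%), with a median difference of -0.33 on the log2 scale against 0.01 for all genes. LAMC1, the laminin gamma chain, read 2561, 1794 and 1348 CPM. Along with FN1, THBS1 and HSPG2 varied. THBS1, the matricellular protein thrombospondin, read 909, 538 and 309.7 CPM, and HSPG2, the basement membrane proteoglycan perlecan, read 45.5, 40.9 and 19.4 CPM. COL6A1, a collagen VI chain, averaged 263 CPM and AGRN, agrin, averaged 283 CPM. Membrane proteases and their inhibitors were present, with ST14, the protease matriptase, at 443, 397 and 355 CPM and its inhibitor SPINT1 at 316, 256 and 246 CPM. The shedding proteases ADAM9, ADAM10 and ADAM17 averaged 356, 296 and 28.9 CPM. MMP7, MMP10, TIMP1 and COL4A1 were absent, and MMP2, MMP9 and PLAU have no row. MMP16 averaged 21.9 CPM and MMP14 read 0.243, 0.2903 and 0.309 CPM.

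Among tumour surface antigens, 35 of 43 rows were expressed (81.4%, against 73.6% of protein-coding rows). Per length FOLH1 was highest (1411 TPM), then BSG (998 TPM), a chaperone of lactate transporters, and STEAP1 (954 TPM). TFRC, the transferrin receptor, varied and read 1172, 974 and 577 CPM. CD276, the checkpoint family member B7-H3, read 267, 231 and 185 CPM. DPP4, a membrane dipeptidase, read 563, 467 and 386 CPM. ERBB3 and ERBB2 averaged 362 and 186 CPM. PSCA read 11.5, 11.4 and 13.8 CPM and NECTIN4 read 29.9, 30.2 and 31.8 CPM. SSTR2, a somatostatin receptor, read 3.07, 3.097 and 2.83 CPM, and GRPR, the bombesin receptor, read 4.18, 3.097 and 1.85 CPM. CD44, the hyaluronan receptor, was absent at 1, 1 and 2 counts. CEACAM5, CEACAM6 and PROM1 have no row.

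Of 46 receptor tyrosine kinase rows 28 were expressed (60.9%) and 7 absent, against 73.6% and 10.7% of protein-coding rows. ERBB3, the kinase-impaired partner of ERBB2, was highest per length at 179.9 ± 21.9 TPM. EGFR stood at 126 ± 54.6 TPM and IGF1R at 116 ± 40.7 TPM, a gap smaller than either SD. EGFR, on chromosome 7 from 55019021 to 55211628, was the member that varied and read 469, 382 and 195 CPM. IGF1R, the receptor of insulin-like growth factors, read 472, 359 and 246 CPM, and INSR, the insulin receptor, read 71.6, 67.9 and 49.04 CPM. Of the 23 members at 5 CPM or more, 22 were lower in shCTR 4 than in shCTR 1, against 48.2% of all genes. The median difference was -0.50 on the log2 scale, and -0.38 after the median of genes of like length was taken off. The ephrin receptors EPHB4, EPHA3 and EPHB3 averaged 119, 104 and 47.3 CPM. Among fibroblast growth factor receptors the order per length was FGFR3, FGFR4, FGFR1 and FGFR2, at 47.3, 8.89, 4.57 and 1.93 TPM. MET, the receptor of HGF, read 2.04, 1.94 and 2.47 CPM, and AXL had 5, 2 and 3 counts. INSRR, PDGFRA and KDR were absent, and KIT, TEK and ROS1 have no row.

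Of G protein-coupled receptors and ion channels, 36 of 48 rows were expressed (75%, against 73.6% of protein-coding rows). At 5 CPM or more 6 of 28 varied, against 1.25% of all genes, and all were lowest in shCTR 4, as were 123 of all 140 varying genes (87.9%). PIEZO1, a mechanosensitive channel, read 561, 497 and 353 CPM, and CLCN3, a chloride-proton exchanger, read 259, 226 and 194 CPM. GPR158, an orphan receptor, read 367, 248 and 176 CPM. S1PR3, a receptor of sphingosine phosphate, read 200.2, 142 and 74.5 CPM. LGR4, a receptor of R-spondins, read 158, 102 and 57.3 CPM, and ACKR3, a scavenger of the chemokine CXCL12, read 15.3, 16.1 and 6.08 CPM. TRPM8 and KCNN2 completed this set. CXCR4, the signalling receptor of CXCL12, read 1.898, 1.74 and 1.08 CPM. CXCR2, EDNRA, ADGRF1 and AVPR1A were absent, and LGR5 and PTGER2 have no row.

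Most members of 2 kinase cascades inside the cell were expressed, 26 of 29 rows in the PI3K, AKT and mTOR list (89.7%, against 73.6% of protein-coding rows) and 28 of 30 in the RAS and MAPK list (93.3%). AKT1 and AKT2 averaged 184 and 210 CPM, and per length 73.8 and 62.6 TPM. MTOR, the growth kinase, read 225, 212 and 178 CPM, and EIF4EBP1, its translational target, read 107, 135 and 194 CPM. Of the catalytic subunits of PI3K, PIK3CB and PIK3CD stood at 69.5 and 67.3 TPM and PIK3CA at 6.25 TPM. INPP4B, a lipid phosphatase that opposes them, read 30.5, 30.1 and 29.1 CPM. In the other cascade PTPN11 read 296, 318 and 265 CPM and NF1, a RAS inhibitor, read 203, 203 and 156 CPM. HRAS and NRAS stood at 85.3 and 76.4 TPM. The feedback phosphatases DUSP4 and DUSP6 stood at 31.3 and 0.399 TPM.

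Developmental pathways had receptors, transducers and some ligands expressed. In the Wnt, Notch and Hedgehog list 35 of 44 rows were expressed (79.5%, against 73.6% of protein-coding rows). Of 33 at 5 CPM or more 2 varied (6.06%, against 1.25% of all genes). CTNNB1, beta-catenin, read 269.7, 278 and 284 CPM, and LRP5, a Wnt coreceptor, read 226, 199 and 169 CPM. AXIN2, a common Wnt target, read 9.099, 8.76 and 8.91 CPM. WNT7B and WNT5A averaged 32.4 and 8.59 CPM, and WNT3A was absent. NOTCH1 read 199, 161 and 113 CPM, and NOTCH3, the second member that varied, read 124, 112 and 61.7 CPM. JAG2, a Notch ligand, averaged 165 CPM, and HES1, a Notch target, was nearly level at 48.5, 49.99 and 48.6 CPM. PTCH1, the Hedgehog receptor, read 106, 87.6 and 56.2 CPM, whereas DHH and GLI2 were absent and SHH had 4, 2 and 1 counts.

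In the TGF-beta and BMP list 27 of 30 rows were expressed (90%, against 73.6% of protein-coding rows). Of 25 at 5 CPM or more 22 were lower in shCTR 4 than in shCTR 1, against 48.2% of all genes. ID1, a BMP target, read 128, 93.2 and 115 CPM. SKI, a SMAD corepressor, read 207, 199.9 and 187 CPM, and BMPR2, the type II BMP receptor, read 215, 181 and 114 CPM. SMAD5 averaged 96.1 CPM. TGFBR3, the coreceptor betaglycan, varied and read 31.2, 23.6 and 13.3 CPM. The signalling TGF-beta receptors were unequal, with TGFBR1 at 23.6 TPM and TGFBR2 at 2.38 TPM. SMAD2, SMAD3 and SMAD4 averaged 81.9, 7.33 and 43.6 CPM.

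For cytokine signalling 33 of 37 rows were expressed (89.2%, against 73.6% of protein-coding rows) and none was absent. STAT3, the transducer of interleukin-6 family signals, read 212, 213 and 224 CPM, and IL6R read 177, 165 and 132 CPM. LIFR, a receptor of leukemia inhibitory factor, varied at 125, 108 and 60.01 CPM. IFNAR1, an interferon receptor chain, averaged 111 CPM. Of the Janus kinases, TYK2 stood at 53.9 TPM, JAK1 at 8.85 TPM, JAK2 at 8.702 TPM and JAK3 at 0.532 TPM. JAK1 and JAK2 differed by less than the larger SD, 1.75 TPM for JAK1 and 1.07 TPM for JAK2. SOCS1 and SOCS3, which feed back on these kinases, had at most 5 and 4 counts.

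Innate sensing and NF-kB genes included expressed adaptors and several absent receptors. Of 40 rows 27 were expressed (67.5%) and 7 absent, against 73.6% and 10.7% of protein-coding rows. MAVS, the mitochondrial adaptor, read 232, 228 and 214 CPM. LTBR, the lymphotoxin receptor, read 253, 232 and 256 CPM, NFKBIA, the inhibitor of NF-kB, read 140.2, 124 and 131 CPM, and TNFRSF1A, a TNF receptor, read 88.8, 77.6 and 98.1 CPM. The DNA sensor CGAS, MB21D1 in the table, had 0, 0 and 2 counts. Its partner STING, listed as TMEM173, read 0.7299, 0.629 and 0.567 CPM. TLR1, TLR4 and TLR9 were absent.

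Antigen presentation was uneven along its steps. The peptide-loading chaperones CALR, CANX and PDIA3 read 2027, 1756 and 1853 CPM, 1665, 1479 and 1151 CPM and 1231, 1097 and 1162 CPM. B2M, the light chain of class I molecules, read 131, 98.6 and 132 CPM. The heavy chains stood at 119 TPM for HLA-C and 15.2 TPM for HLA-B, and as polymorphic near-identical genes their split is uncertain. TAPBP, tapasin, varied and read 21.2, 15.4 and 9.38 CPM, TAP1 read 17.9, 15.97 and 13.03 CPM and TAP2 has no row. PSMB8 and PSMB9, immunoproteasome subunits, stayed under 0.4 CPM. CD274, the ligand PD-L1, read 0.535, 0.532 and 0.876 CPM. HLA-DRB1, VTCN1, HHLA2 and LGALS9 were absent.

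Tumour suppressor, cell cycle and DNA repair genes were expressed in 40 of 41 rows (97.6%, against 73.6% of protein-coding rows), the exception being CCND2 at 2, 0 and 2 counts. PARP1, a DNA break sensor, read 493, 539.9 and 559 CPM, and CCND1, cyclin D1, read 318, 352 and 346 CPM. The chromatin regulators KDM6A and KMT2D read 339, 338 and 246 CPM and 344, 309 and 257 CPM. RB1, the retinoblastoma protein gene, read 47.7, 53.4 and 45.5 CPM. Among mismatch repair genes, MSH6 stood at 29.5 TPM and MSH3 at 19.6 TPM. BRCA2 read 121, 84.7 and 63.7 CPM.

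Transporters had 22 of 36 rows at a mean of 100 CPM or more, against 7.75% of all rows. All rows include noncoding genes and pseudogenes, so that share is not matched to this list. SLC38A2, a glutamine transporter, read 1094, 861 and 598 CPM. Zinc handling included SLC39A6 at 445, 363 and 324 CPM and SLC30A1, an exporter that varied, at 81.8, 64.5 and 34.7 CPM. SLC16A7, a lactate transporter, also varied and read 57.95, 48.8 and 27.3 CPM. ABCB1, the drug efflux pump, had 3 counts in every library, and SLCO1A2 had 1 in each. Of 28 members at 5 CPM or more, 24 were lower in shCTR 4 than in shCTR 1, against 48.2% of all genes. The median difference was -0.48 on the log2 scale, and -0.54 after the median of genes of like length was taken off.

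Of 25 well known long noncoding RNAs with a row 21 were expressed, against 492 of all 2667 lincRNA rows (18.4%). NEAT1, the scaffold of paraspeckles, read 1479, 1426 and 1198 CPM, NORAD read 336, 379.9 and 315 CPM and GAS5 read 286, 272 and 272 CPM. The prostate transcript PCA3 read 8.32, 7.69 and 4.997 CPM, SCHLAP1 read 7.69, 6.77 and 5.51 CPM, and HOTAIR was absent. Whether the counting used strand is not given in the sources used here, so reads of a transcript and of one on the opposite strand cannot be told apart.

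The 3 control libraries were close but not equal. Over 11191 genes with a mean of 5 CPM or more the median ratio of the highest to the lowest level was 1.21, and 47.7% of genes were under 1.2. Counting noise was tested by a chi-square test of each gene's counts over the 3 libraries, with Benjamini-Hochberg adjustment, and 8026 of 15995 genes (50.2%) differed beyond it. This compares these libraries' reads and no condition. The common biological coefficient of variation from edgeR was 0.132. Libraries 1 and 2 were nearest, with a median absolute log2 difference of 0.128 and 6 genes at 2-fold, against 0.228 and 133 genes between 4 and 1 and 0.169 and 29 genes between 4 and 2. Library 2 had the middle level in 57.9% of genes. Without shCTR 4, 4033 genes differed beyond counting noise and the coefficient was 0.0821. Among the most even abundant genes, by edgeR's gene-wise dispersion, were IRX4, TFDP1, YTHDF1 and DNAAF5. IRX4, a homeobox factor, read 102, 100.5 and 99.7 CPM.

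Of the 140 varying genes, 114 are protein coding, and all 140 also differed by the chi-square test, which used the same counts. In 118 shCTR 1 was highest and shCTR 4 lowest, in 12 the order was opposite, and in 10 shCTR 2 was highest. Over all 11191 genes of 5 CPM or more the former order held in 2941 (26.3%) and the opposite one in 3533 (31.6%). The count rested on these 2 libraries, with 27 genes passing without shCTR 1 and 6 without shCTR 4. Of the protein-coding ones CYP11A1, GCG and SERPINE2 had the largest ratios, 5.47, 5.37 and 4.36. GCG, the glucagon precursor, read 25.98, 14.5 and 4.84 CPM, and SERPINE2, a protease inhibitor, read 16.4, 10.1 and 3.76 CPM. NAALAD2, a relative of FOLH1, read 10.7, 7.31 and 2.94 CPM. CLEC7A, a lectin receptor of myeloid cells, read 59.5, 43.8 and 17.7 CPM. SLC6A6, the taurine transporter, read 75.9, 60.7 and 24.4 CPM, and SLC26A3, an anion exchanger, read 8.42, 5.23 and 2.73 CPM. POMK, a kinase of dystroglycan sugars, read 47.4, 40.8 and 14.4 CPM. HIST4H4, a histone gene with near-identical copies, read 25.8, 17.9 and 7.06 CPM, while SPAG17 and EPHA5 read 8.08, 5.32 and 2.32 CPM and 10.1, 5.56 and 3.04 CPM. Each of these was highest in shCTR 1 and lowest in shCTR 4, with shCTR 2 between them.

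Of the protein-coding genes with the opposite order, S100P, a calcium-binding protein, had the largest ratio and read 14.9, 30.8 and 46.9 CPM. DDIT4, a stress-induced inhibitor of mTOR, read 51.6, 80.5 and 120.3 CPM. PRAC1, a prostate and colon transcript, read 4.77, 5.86 and 10.7 CPM, and UQCRHL, a near-identical copy of UQCRH, read 9.73, 12.7 and 21.2 CPM. RN7SL2, the RNA of the signal recognition particle, had the largest ratio of all genes with a mean of 5 CPM or more and read 4.33, 8.18 and 25.7 CPM. It is transcribed without a poly(A) tail and has near-identical copies, and its part in the other differences was not tested. Genes highest in shCTR 2 were few: RANBP3L read 7.25, 8.03 and 2.94 CPM, TOX3 read 5.74, 12.4 and 9.43 CPM, and ENO2 and ACKR3 have been given.

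**Figure D4:**
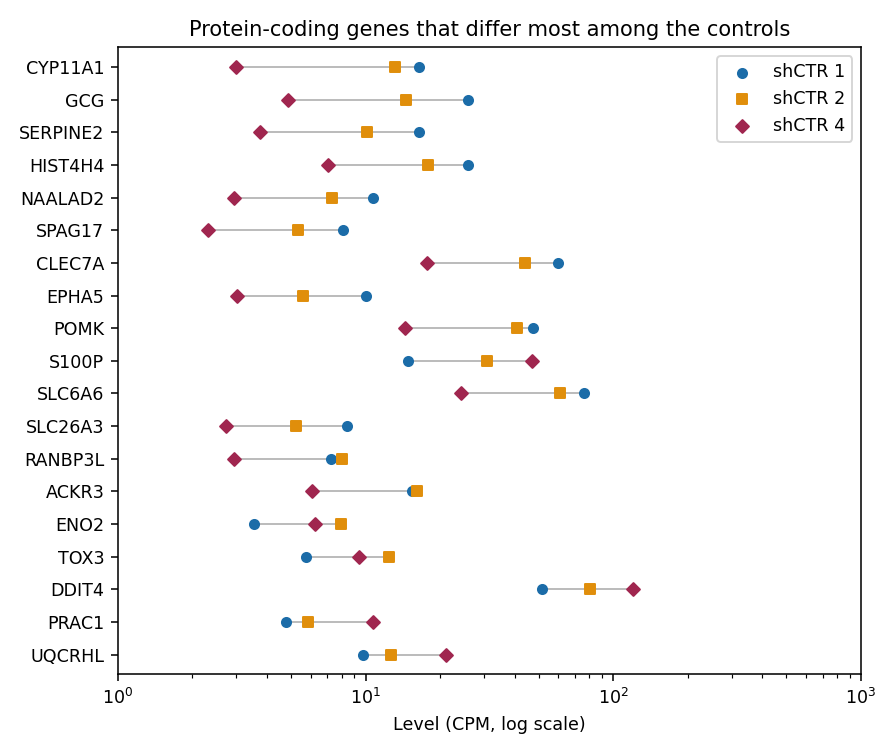
Levels in CPM on a log axis of the protein-coding genes with the largest highest-to-lowest ratios, overall and for each library as the highest; each symbol is 1 control library. Most genes have shCTR 1 at the right and shCTR 4 at the left, as CYP11A1 from 16.3 to 2.99 CPM, and S100P and DDIT4 have the opposite order.

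The differences among the controls moved with gene length. For shCTR 4 against shCTR 1 the correlation of the log2 difference with the log of exon length was -0.41 across 11175 genes, which are not independent replicates and share both libraries. With the genes cut by length into 4 equal groups, from the shortest to the longest, the median log2 difference was 0.25, 0.07, -0.04 and -0.17. Cytosolic ribosomal protein genes, taken by symbol, were higher in shCTR 4 in 80 of 83 cases, against 5796 of all 11191 genes (51.8%), with a median of 0.58 on the log2 scale, and their summed level was 42000, 50420 and 62440 CPM. EEF2 (4744, 5674 and 6284 CPM) and GAPDH, the glycolytic enzyme (1302, 1501 and 2056 CPM), were likewise higher in shCTR 4 than in shCTR 1, as were 28 of 30 housekeeping genes, at a median of 0.34. The matrix list had the opposite sign. After the median of genes of like length was taken off, the medians were 0.45 for the ribosomal proteins, 0.27 for the housekeeping genes and -0.35 for the matrix genes, and 134 genes passed the 2-fold rule. The part of gene length in each single difference was not tested.

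**Figure D5:**
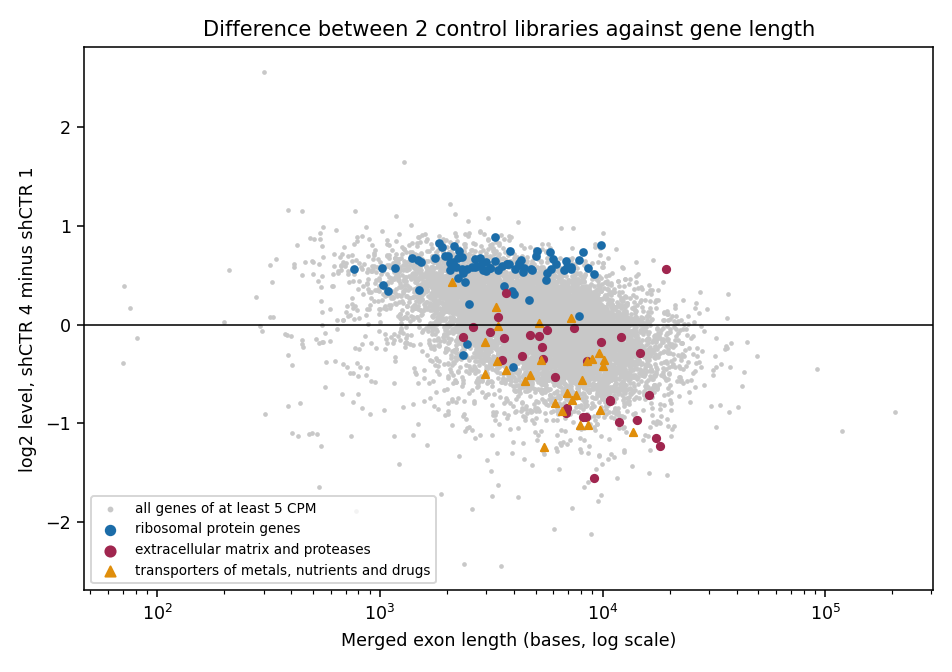
Log2 level in shCTR 4 minus that in shCTR 1 for each gene with a mean of 5 CPM or more, against merged exon length in bases on a log axis; blue points are ribosomal protein genes, red circles matrix and protease genes and orange triangles transporters. Ribosomal protein genes lie mostly above 0, with a median of 0.58, and 29 of 32 matrix and protease genes lie below 0.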

How the data were processed

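The deposited table holds raw read counts per gene from polyadenylated RNA of 6 C42 libraries, of which the 3 shCTR columns were used, with no normalization by the authors, judged from the whole numbers. Per the submitters' processing notes, CASAVA 1.8.2, STAR 2.6.0a and GRCh38 were used. How reads were counted, on which annotation and strand, and which rows were kept is not given in the sources used here. CPM used each library's total. TPM used GENCODE 29 merged exon lengths of 200 bases or more, a limit set after seeing the data, as were the ribosomal protein set and the length trend. Gene lists and members were chosen with earlier results of these data known. Named genes were the 20 of highest mean CPM, the members of 3 prostate and receptor lists, the highest and the absent members of the other lists, the genes of largest ratio and the most even ones. Others were named as examples after their values were seen. Dispersion came from edgeR 4.0.16 in R 4.3.3 (intercept only, TMM, filterByExpr), and the chi-square test had 2 degrees of freedom and a threshold of 0.05. Simulated counts for 15995 genes held Poisson counting noise only, with no other spread between libraries, and some genes were changed in a single library. On them the test recovered 72 of 100 genes changed 1.5-fold and 99 of 100 changed 3-fold, with 13 false calls. The simulation does not give the number of false calls in the real libraries. DESeq2 1.42.0 size factors, TMM, other limits, TPM and leaving out each library were the alternatives. 100 rows had no match in GENCODE 29. Some members of the lists are counted but not reported by name here.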

Additional observations from a re-analysis of the deposited data

How the results depend on the processing

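Normalization by TMM or DESeq2 size factors left the number of expressed genes at 14200 and varying genes at 138 and 137. Every mean level of the 277 named genes stayed within 1 SD of its value under both scalings. The TMM factors were 1.003, 1.004 and 0.9929 in shCTR 1, 2 and 4, so that scaling could hardly move a mean. Limits on low values decided the counts: absent genes numbered 664 at 0 counts and 13509 at 10 counts or fewer, and varying genes numbered 567 at a mean of 1 CPM or more and 11206 with no limit on the mean. A fold of 1.5 gave 1191 varying genes and a fold of 3 gave 18. As TPM, the top 10 genes held 4.604%, the top 100 held 18.35%, 973.3 genes on average held 50%, and 10 of the top 20 were shared. Leaving out 1 library moved the varying genes between 6 and 132: 27 without shCTR 1, 132 without shCTR 2 and 6 without shCTR 4. The genes that differed beyond counting noise numbered 4033 to 7399, lowest without shCTR 4, and the coefficient of variation ran from 0.0821, without shCTR 4, to 0.175, without shCTR 2. Counting error limits levels near 3 counts. No paired analysis was possible because a single group was described, with no contrast between groups.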

Other observations

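Rows with less than 200 bases of annotated exons were kept out of the per-length values. There were 1725 of them and they held 1623 CPM together on average. MIR30A, the row of a microRNA hairpin, took most of that at 1128, 1230 and 1479 CPM, and reads that overlap a longer transcript at the same place cannot be told apart from it.

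Genes outside every list also varied among the controls. FAT1, a protocadherin, read 322, 234 and 114 CPM, and SLC26A2, a sulfate transporter, read 282, 180.5 and 93.7 CPM. The ion transporters SLC4A4 and SLC4A7, both carriers of bicarbonate, read 253, 180.2 and 101 CPM for SLC4A4 and 170.4, 133 and 68.4 CPM for SLC4A7. GPER1, a membrane receptor of estrogens, read 53.5, 38.7 and 19.1 CPM, and SYT4, a synaptotagmin, read 164, 130.3 and 63.7 CPM. All 6 were highest in shCTR 1 and lowest in shCTR 4, as were 118 of the 140 varying genes. Of all genes with a mean of 5 CPM or more 26.3% had this order. The 6 names were chosen after their values were seen.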
